A study of Mus musculus with 2 samples.

Results

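The 10 genes described here are transcription factors of the epiblast and of pluripotent cells: Nanog, Sox2, Pou5f1, Sox21, Prdm14, Esrrb, Klf4, Klf2, Tfcp2l1 and Zfp42. They were taken by name from a table of 52366 genes, of which 23171 had at least 1 UMI (unique molecular identifier, a barcode meant to mark one captured transcript) in the embryos. The embryos were 24 pseudoblastocysts, that is, embryos with a cavity that were not examined for an inner cell mass (ICM), produced by in vitro fertilization of B6D2F1 oocytes with ICR spermatozoa and cultured to the blastocyst stage. Of these, 6 came from zygotes freed of the zona pellucida and are called 1C. The 2CB, 4CB and 8CB embryos, 6 of each, grew from a single blastomere taken from a 2-cell, a 4-cell or an 8-cell embryo, respectively. Each embryo was a separate barcoded CEL-Seq2 sample of whole-embryo RNA, so fewer cells of a type and less RNA per cell cannot be told apart. The sources used here do not say which embryos were sisters from the same parental embryo, and the p-values measure the spread between embryos only.

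The embryos were barcoded in 2 library pools of 12, one with all 1C and 8CB embryos and the other with all 2CB and 4CB embryos. A difference between these 2 pairs of stages and a difference between pools therefore cannot be told apart, whereas 8CB against 1C and 4CB against 2CB are comparisons within a pool. Totals ranged from 70941 to 1507471 UMIs per embryo, and levels are given as CPM, the UMIs of a gene per 1000000 UMIs of its embryo. At the lowest total a count of 0 allows up to 42.3 CPM, and at the highest total up to 1.99 CPM (3 counts, counting error only). Whether each count stands for a distinct transcript could not be settled from the sources used here.

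In the blastocyst the outer trophectoderm surrounds the ICM, which divides into the epiblast, the source of the fetus, and the primitive endoderm. Epiblast cells are held in a pluripotent state by a network in which Pou5f1 (OCT4), Sox2 and Nanog bind many enhancers together, and Esrrb, Klf2, Klf4, Tfcp2l1 and Prdm14 are factors that sustain this state in mouse embryonic stem cells. Zfp42 (REX1) is a marker of the same state. Sox21 is a SOX family repressor known from differences among the blastomeres of the cleavage-stage embryo. Several of these factors are also transcribed before the blastocyst forms and are not restricted to the epiblast at every stage.

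Of the 10 genes, 4 were called (edgeR adjusted p below 0.1) between the library pools, and these calls remained under every alternative tried. Nanog, Esrrb and Klf2 were lower in 2CB and 4CB, and Sox2 was higher. Sox2 met the minimum level for testing only through the 2CB and 4CB side, where it was high. Its call is therefore given as a description. Of all genes tested, 55.3% were called in this comparison, and how many of them kept the call under every alternative was not computed. The promoters of the 4 genes, from 250 bases before to 50 bases after a RefSeq transcription start, are printed first because these factors regulate one another's genes in the textbook network. The windows are chr6:122707239-122707538 for Nanog (first of its 2 windows), chr3:34649745-34650044 for Sox2, chr12:86360867-86361166 for Esrrb (first of its 2 windows) and chr8:72318812-72319111 for Klf2, all on the plus strand of GRCm38.p6. Capitals mark matches to 4 sets of letters searched on both strands, namely an octamer (ATGCAAA), a SOX motif (ACAATG), a KLF motif (CCACCC) and an ESRRB motif (AAGGTCA).
Nanog: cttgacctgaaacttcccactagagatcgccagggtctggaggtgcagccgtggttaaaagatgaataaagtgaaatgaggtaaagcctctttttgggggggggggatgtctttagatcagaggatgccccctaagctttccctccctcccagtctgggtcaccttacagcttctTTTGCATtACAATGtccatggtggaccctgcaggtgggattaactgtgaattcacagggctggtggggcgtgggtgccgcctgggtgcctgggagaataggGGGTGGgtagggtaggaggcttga
Sox2: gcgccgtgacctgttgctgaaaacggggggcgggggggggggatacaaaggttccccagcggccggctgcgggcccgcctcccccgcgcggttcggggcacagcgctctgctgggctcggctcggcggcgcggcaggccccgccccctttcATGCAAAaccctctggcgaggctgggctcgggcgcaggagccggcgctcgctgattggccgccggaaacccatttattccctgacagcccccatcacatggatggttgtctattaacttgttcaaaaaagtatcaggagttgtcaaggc
Esrrb: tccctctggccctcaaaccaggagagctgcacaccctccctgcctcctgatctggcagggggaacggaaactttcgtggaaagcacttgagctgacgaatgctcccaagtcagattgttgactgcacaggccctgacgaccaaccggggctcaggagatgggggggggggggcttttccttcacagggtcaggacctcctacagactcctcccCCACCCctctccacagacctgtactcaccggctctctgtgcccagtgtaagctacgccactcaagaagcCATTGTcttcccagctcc
Klf2: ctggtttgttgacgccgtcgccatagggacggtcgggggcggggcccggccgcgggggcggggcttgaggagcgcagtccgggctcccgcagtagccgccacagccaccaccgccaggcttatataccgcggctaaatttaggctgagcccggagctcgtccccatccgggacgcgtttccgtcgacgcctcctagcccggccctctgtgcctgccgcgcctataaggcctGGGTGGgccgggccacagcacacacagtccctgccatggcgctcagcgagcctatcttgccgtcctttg

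The Nanog window held the octamer and the SOX letters 1 base apart, with first bases at -75 and -67 from the start, and a KLF match at 26. The Sox2 window held the octamer at -99 and none of the other 3 motifs. Esrrb had a KLF match at -37 and a SOX match at 32, and Klf2 had a KLF match at -19. RefSeq windows were found for 9 of the 10 genes (12 windows), and the octamer occurred in 3 of them (Nanog, Sox2 and Zfp42), the SOX letters in 3 (Nanog, Pou5f1 and Esrrb), the KLF letters in 5 and the ESRRB letters in 0. Counted by window, as for all promoters, 4 of the 12 windows held the octamer, 4 the SOX, 7 the KLF and 0 the ESRRB letters. The 2 Nanog windows overlap, so their octamer, SOX and KLF matches are the same sites counted in both. Over all 32851 promoter windows the shares were 4.63% for the octamer, 12.6% for SOX, 31.5% for KLF and 4.72% for ESRRB. A match describes the letters in the window and is not evidence of binding.

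**Figure D1:**
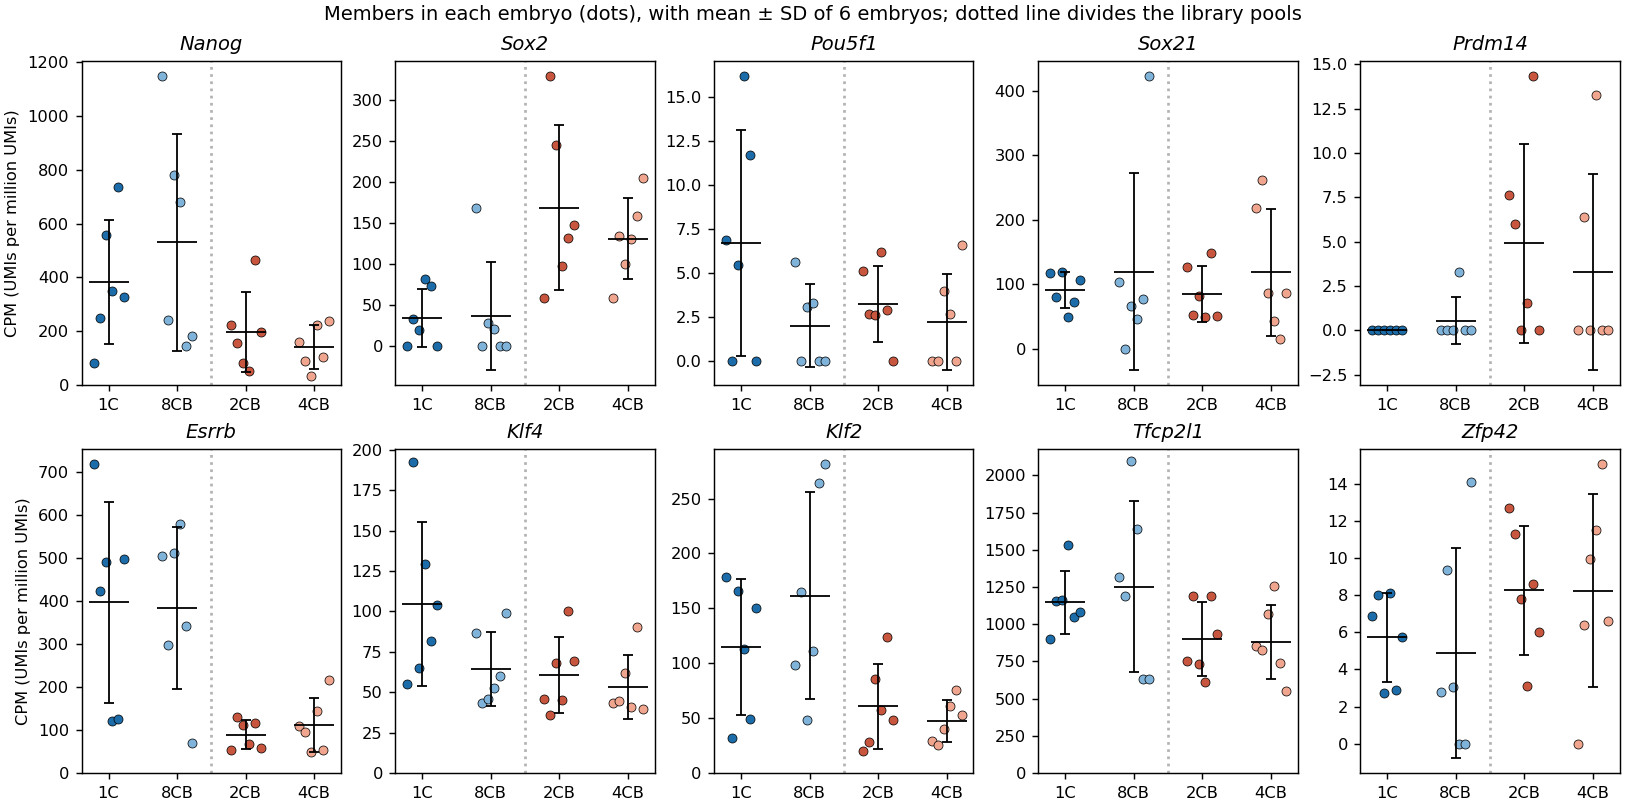
CPM of each of the 10 genes (vertical axis, linear and scaled per gene) in every embryo, by stage on the horizontal axis, with the mean and SD of 6 embryos as black bars and a dotted line between the library pools. Sox2 is low in 1C and 8CB apart from 168 CPM in 8CB embryo 1, Esrrb lies between 49.8 and 217 CPM in all 2CB and 4CB embryos, and Pou5f1, Prdm14 and Zfp42 reach at most 16.2, 14.4 and 15.1 CPM.

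Of the 10 genes, 7 passed edgeR's filter on low counts and were tested among 5940 genes with edgeR's quasi-likelihood F test, called at a Benjamini-Hochberg adjusted p below 0.1. Between the pools, in 2CB and 4CB relative to 1C and 8CB, 1 of the 7 was higher, 5 were lower and Sox21 was not called. The filter asked for 30.2 CPM in 6 embryos, which 1705 of the 5940 genes met on 1 of the 2 sides only, and these were admitted through that side. Among the 7 this was so for Sox2. Over all genes 55.3% were called, 31.3% higher and 24% lower, so a call by itself was common in this comparison. The median log2 fold change of the 7 was -0.52, against 0.12 for all genes tested. The ranges of the 2 sides overlapped for all 7 genes, while 3.54% of all genes lay without overlap on the higher side and 2.21% on the lower side.

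Among the core factors, Sox2 was the gene that rose. It encodes an HMG-box protein that pairs with OCT4 on DNA. In 1C embryos 1 to 6 it had 0, 32.1, 19.0, 80.9, 72.9 and 0 CPM, and in 8CB embryos 168, 0, 27.3, 19.7, 0 and 0 CPM. The 2CB embryos had 58.4, 330, 245, 97.5, 132 and 147 CPM, and the 4CB embryos 58, 134, 99.7, 130, 158 and 204 CPM. Sox2 was thus detected in all 12 2CB and 4CB embryos and in 7 of 12 1C and 8CB embryos, and 9 of these 12 lay below the lowest 2CB or 4CB embryo. The log2 fold change was 1.96 (standard error 0.52, edgeR adjusted p = 0.00244). Sox2 reached 30.2 CPM in 12 of 12 2CB and 4CB embryos and in 4 of 12 of the others. It was thus tested only through the side where it was high, and its p-value is given as a description. With no filter its log2 fold change was 1.93. The standard error of that fit was 0.30 against 0.52 in the main fit, so its smaller p-value is not given. When every embryo was thinned to 70941 UMIs, Sox2 was still found in 12 of the 12 2CB and 4CB embryos and in 6 of the 12 others. The 60 UMIs in 8CB embryo 1 made up most of the 75 UMIs in 8CB, and without that embryo the log2 fold change was 2.79.

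Nanog, a homeodomain factor that marks epiblast precursors, went the other way. It had 82.3, 249, 559, 348, 735 and 326 CPM in 1C embryos 1 to 6 and 1149, 243, 781, 681, 145 and 183 CPM in 8CB embryos. In 2CB embryos it had 223, 156, 80.8, 52.6, 466 and 198 CPM, and in 4CB embryos 159, 89.3, 31.9, 223, 105 and 237 CPM. All 24 embryos held Nanog UMIs, 5 of the 12 1C and 8CB embryos exceeded every 2CB and 4CB embryo, and 1 of the 12 2CB and 4CB embryos exceeded the median of the other side. The log2 fold change was -1.49 (standard error 0.38, edgeR adjusted p = 0.0017). By stage the mean was highest in 8CB (530 ± 405 CPM), followed by 1C (383 ± 231), 2CB (196 ± 148) and 4CB (141 ± 80.2; SD over 6 embryos), and neither 8CB and 1C nor 2CB and 4CB differed beyond their spread.

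Pou5f1, which encodes OCT4 and has its place beside Sox2 and Nanog, was close to the limit of detection. It had 0 to 4 UMIs per embryo, with 9 UMIs over the 6 1C embryos, 4 over the 8CB embryos, 14 over the 2CB embryos and 6 over the 4CB embryos, and it did not pass the filter. Over the 12 embryos of each side it had 3.0 CPM in 2CB and 4CB and 4.4 CPM in 1C and 8CB, a ratio of 0.682 with an exact 95% interval of 0.323 to 1.49 for counting error only. The highest embryo was 1C embryo 4 with 16.2 CPM, from 2 UMIs. These few UMIs leave its level between stages unresolved. Its exons share 317 bases with the gene Gm19553 on the opposite strand, 170 of them within the last 500 exon bases, and Gm19553 itself is listed with 0 UMIs. How reads over such overlaps were assigned is not given in the sources used here, and their part in the low count was not tested.

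The number of UMIs of Nanog, Esrrb or Klf2 for each UMI of Sox2 in the same embryo does not depend on the scaling between embryos. This ratio was chosen after the values had been seen and is given as a description. Nanog had at least 4.00 UMIs per Sox2 UMI in every 1C and 8CB embryo, where 5 embryos at 0 Sox2 UMIs were set to a floor of 3 counts per embryo, and 0.320 to 3.83 in 2CB and 4CB embryos. Esrrb had more UMIs than Sox2 in 12 of 12 1C and 8CB embryos and in 3 of 12 2CB and 4CB embryos, with ratios from 1.5 to at least 57.7 (5 of 12 being lower bounds set by the same floor) and from 0.333 to 1.88. For Klf2 the counts of embryos were 9 of 12 and 0 of 12. The plot of Sox2 against Nanog and Esrrb shows the same values per embryo.

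**Figure D2:**
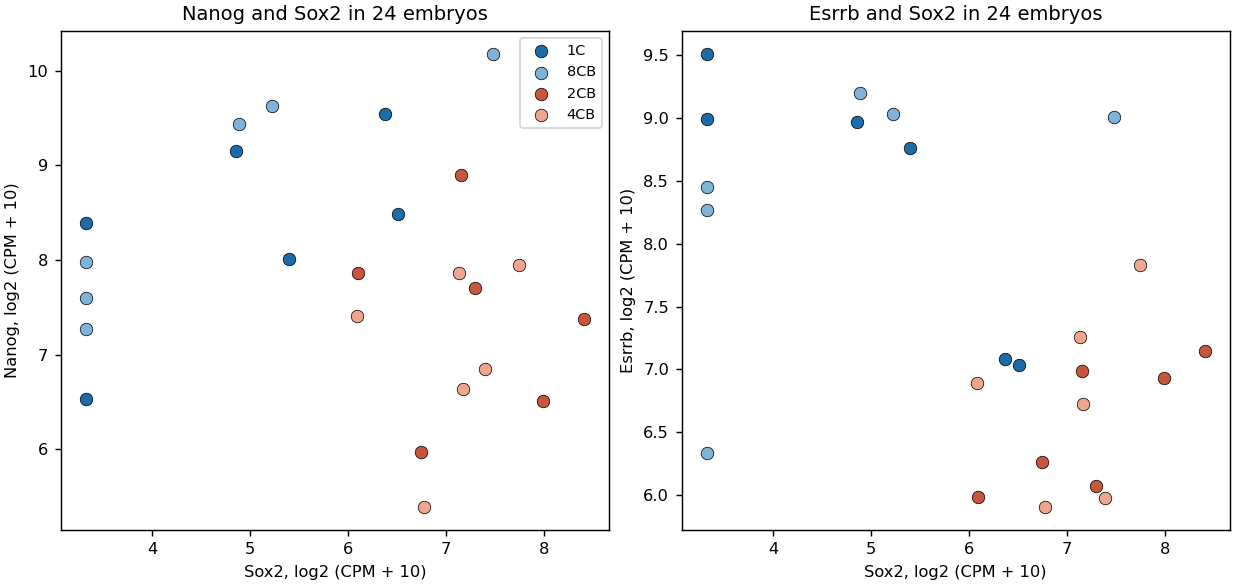
Each point is 1 of 24 embryos, coloured by stage, with Sox2 on the horizontal axis and Nanog (left) or Esrrb (right) on the vertical axis, all as log2 of CPM plus 10. The 5 embryos at the left edge of each panel, 2 of 1C and 3 of 8CB, had 0 Sox2 UMIs, and the 2CB and 4CB embryos lie towards high Sox2 and low Esrrb.

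Of the factors that sustain the naive state, Esrrb, an orphan nuclear receptor, fell most. It had 720, 425, 491, 121, 125 and 499 CPM in 1C embryos 1 to 6 and 505, 299, 513, 580, 341 and 70.5 CPM in 8CB embryos. In 2CB embryos the values were 53.3, 131, 112, 66.6, 117 and 57.1 CPM, and in 4CB embryos 109, 95.7, 49.8, 143, 52.7 and 217 CPM. Thus 9 of the 12 1C and 8CB embryos exceeded every 2CB and 4CB embryo, and the other three, 1C embryos 4 and 5 and 8CB embryo 6, lay among them. The log2 fold change was -2.02 (standard error 0.31, edgeR adjusted p = 4.87e-06). The stage means were 397 ± 234 CPM for 1C, 385 ± 188 for 8CB, 111 ± 62.8 for 4CB and 89.5 ± 34.3 for 2CB (SD over 6 embryos), and those of one pool did not differ beyond their spread.

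Klf2, a zinc finger factor of the Krüppel-like family, had 178, 32.1, 166, 113, 49.6 and 150 CPM in 1C embryos 1 to 6 and 98.1, 165, 48.6, 111, 264 and 282 CPM in 8CB embryos. The 2CB embryos had 20.3, 28.5, 86.0, 57.3, 123 and 48.1 CPM, and the 4CB embryos 29.0, 25.5, 39.9, 61.0, 75.3 and 52.7 CPM. None of the 12 2CB and 4CB embryos reached the median of the 1C and 8CB embryos, 132 CPM, and 6 of those 12 exceeded all 2CB and 4CB embryos. Klf2 fell by 1.34 on the log2 scale (standard error 0.32, edgeR adjusted p = 0.00107).

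The related Klf4 spanned 54.9 to 192 CPM among 1C embryos (median 92.8), 43.6 to 98.7 among 8CB (56.1), 35.8 to 100 among 2CB (56.7) and 39.5 to 90.4 among 4CB embryos (44.1). Its log2 fold change across the pools was -0.52 (standard error 0.24, edgeR adjusted p = 0.0767), and the call was lost under 7 of 9 alternatives and without 1C embryo 2 (0.126) or 8CB embryo 1 (0.121). Its 8CB values lay near those of 2CB and 4CB. The log2 fold change of 8CB against 1C was -0.70 (standard error 0.35), which did not pass the test (0.553), and that of 8CB against 2CB was 0.06 (0.34). Tfcp2l1, a grainyhead-like factor downstream of LIF signalling, spanned 899 to 1529 CPM among 1C embryos (median 1118), 631 to 2099 among 8CB (1252), 611 to 1192 among 2CB (840) and 553 to 1255 among 4CB embryos (837). It had a log2 fold change of -0.46 (standard error 0.19, edgeR adjusted p = 0.0496), and 0.101 after thinning. It was also the gene of the 7 whose level moved most with depth, with a Pearson's r of 0.661 to log2 total UMIs over 24 embryos after stage means were subtracted, and in 8CB its 2 lowest values were in embryos 5 and 6, which had the lowest totals of that stage. With log2 total UMIs as a covariate its log2 fold change was -0.75 (edgeR adjusted p = 0.00124).

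**Figure D3:**
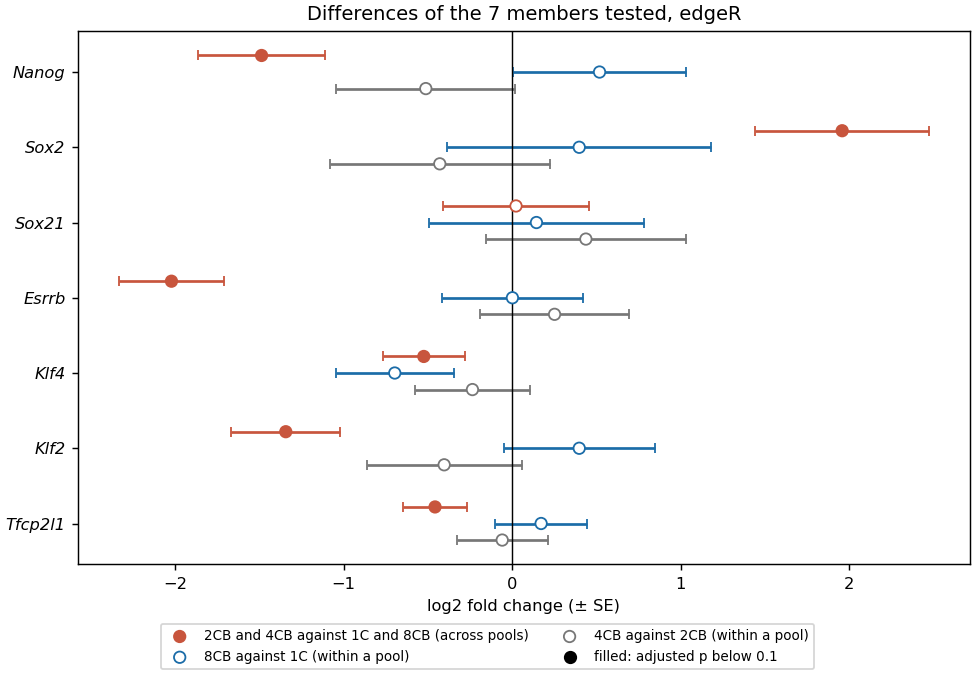
Log2 fold change (horizontal axis) with its standard error for the 7 genes tested, for the comparison across the pools and the 2 within a pool, with filled symbols where the edgeR adjusted p was below 0.1. Esrrb at -2.02 and Sox2 at 1.96 lie farthest from 0, and all symbols of the within-pool comparisons are open.

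Sox21 was the gene of the 7 that was not called. It spanned 48.5 to 119 CPM among 1C embryos (median 93.5), 0 to 423 among 8CB (71.8), 49.5 to 148 among 2CB (66.6) and 15.1 to 262 among 4CB embryos (85.7). Its log2 fold change across the pools was 0.02 (standard error 0.43, edgeR adjusted p = 0.97), with a sign that turned under several alternatives. The exons of Sox21 share 713 bases with Gm4675 on the opposite strand (146 UMIs in all), none of them in the last 500 exon bases. Carm1, an arginine methyltransferase that has been linked to Sox21 in the 4-cell embryo, had 11 UMIs over 2CB and 4CB and 3 over 1C and 8CB and did not pass the filter.

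Prdm14, a PR-domain protein that represses differentiation and DNA methylation genes in pluripotent cells, had 0 UMIs in all 6 1C embryos and 1 UMI in 8CB embryo 4. In 2CB it had 3, 9, 0, 1, 15 and 0 UMIs and in 4CB 0, 1, 0, 15, 0 and 0 UMIs. The pooled level was 6.61 CPM in 2CB and 4CB against 0.339 CPM, a ratio of 19.5 with an exact 95% interval of 3.32 to 788 for counting error only. The 3 embryos with 9 to 15 UMIs were those with the largest totals. After thinning, 5 UMIs remained in 4 embryos of 2CB and 4CB and 0 in 1C and 8CB. Zfp42, which encodes the zinc finger protein REX1, had 0 to 3 UMIs per 1C and 8CB embryo and 0 to 17 per 2CB and 4CB embryo. Its pooled level was 9.01 CPM in 2CB and 4CB and 4.4 CPM in 1C and 8CB, a ratio of 2.05 (exact 95% interval 1.11 to 4.06, counting error only), and it did not pass the filter. With no filter on low counts, edgeR called Prdm14 (adjusted p = 0.0108) but neither Zfp42 (0.545) nor Pou5f1 (0.907). Standard errors of that fit moved from those of the main fit, to 0.17 from 0.43 for Sox21 and to 0.30 from 0.24 for Klf4. With the few UMIs given above, the call of Prdm14 does not settle a difference.

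Within a pool, none of the 7 genes was called. In 8CB against 1C edgeR called 0% of all genes (0 of 5940, with 550 at an unadjusted p below 0.05 and 43 called by DESeq2), and the largest differences among the 7 were -0.70 (standard error 0.35) for Klf4 and 0.52 (0.52) for Nanog. In 4CB against 2CB 0.0337% of all genes were called, with -0.51 (0.53) for Nanog and 0.44 (0.59) for Sox21 as the largest among the 7. The 2 genes called there, named after their values were seen, were Hspa1b, which encodes an inducible heat shock protein and was higher in 4CB by 4.73 (edgeR adjusted p = 0.00208), and Phlda1, higher by 2.04 (0.0474). These standard errors leave room for differences of 1 or more on the log2 scale in the variable genes, and a missed threshold does not show that the stages were alike. Sox2 differed by 0.40 (0.78) and -0.43 (0.65) in the 2 comparisons, and without 8CB embryo 1 the first value was -1.33.

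Each stage of one pool was also set against each stage of the other, comparisons that share embryos with one another and with the one above. Sox2 entered these tests, and the one among the 4 stages, only through 2CB and 4CB, where it was high. Its p-values and calls here are therefore given as a description. In 2CB against 1C, where 41.5% of all genes were called, Sox2 rose by 2.37 (edgeR adjusted p = 0.0139) and Esrrb fell by 2.15 (0.000406), Klf2 by 0.94 (0.0997) and Klf4 by 0.75 (0.08). The last 2 calls were weak. That of Klf2 was lost under 7 of 10 alternatives (to -0.32, adjusted p = 0.72, after thinning) and without 1C embryo 1, 3 or 6 or 2CB embryo 1, 2, 4 or 6 (adjusted p up to 0.172), and that of Klf4 under 6 of 10 (to -0.45, 0.392, with depth as covariate) and without 1C embryo 2, 4 or 6 or 2CB embryo 1, 2 or 4 (up to 0.191). In 4CB against 1C (40.9% of all genes) Sox2 rose by 1.94 (0.047), and Esrrb, Nanog, Klf2 and Klf4 fell by 1.89, 1.48, 1.34 and 0.99 (0.00169, 0.0346, 0.0277 and 0.0296). There the call of Sox2 was lost without 1C embryo 3 or 6 (adjusted p up to 0.105) and under 1 of 10 other alternatives (up to 0.266), and that of Klf4 under 2 of 10 (up to 0.143). In 8CB against 2CB (38.4%) Esrrb, Nanog and Klf2 were higher in 8CB by 2.15, 1.49 and 1.34 (0.000426, 0.0297 and 0.0218), and Sox2 had -1.97 (0.0328), with the call lost without 2CB embryo 2 (-1.58, 0.101) and under 1 of 10 other alternatives (0.135). Klf2 lost its call there under 3 of 10 (0.92 to 1.46, adjusted p up to 0.185). In 8CB against 4CB (40.2%) the values were 1.90, 2.00 and 1.74 (0.00172, 0.0056 and 0.00551) for the same 3 genes and -1.55 (0.099) for Sox2. This call of Sox2 was lost when any 1 embryo other than 1C embryo 6 or 8CB embryo 1 was left out, 22 of 24 (log2 fold changes of -3.25 to -1.23 over all 24) and under 5 of 10 other alternatives (-1.81 to -0.68, adjusted p up to 0.619). In the test among the 4 stages, in which 47.1% of all genes were called, 5 of the 7 passed, namely Esrrb, Nanog, Klf2, Sox2 and Klf4. The number was 4 with DESeq2, its size factors, thinning, an adjusted p below 0.05, the replicate block or without the 8 embryos under 160000 UMIs, and 4 to 6 without 1 embryo. Esrrb was called in each of the 4 pairs across the pools, whereas Nanog was not called in 2CB against 1C (-0.97, adjusted p = 0.151). Nanog was called there under 4 of 10 alternatives (down to -1.64, adjusted p = 0.0246, with depth as covariate) and without 1C embryo 1 or 2CB embryo 5 (down to -1.47, 0.0394). Tfcp2l1, called in none of the 4 pairs, gained a call in 8CB against 4CB in 8 of 24 fits without 1 embryo and under 3 of 10 other alternatives. In 8CB against 2CB it did so in 3 of 24 and 2 of 10, and in 2CB and in 4CB against 1C under 1 of 10 each.

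The genes also differed in how much embryos of a stage varied. The biological coefficient of variation (the spread between embryos beyond counting error, from edgeR) was 0.85 for Sox2, 0.699 for Sox21 and 0.617 for Nanog, at percentiles 97.4, 93.5 and 89.1 of the 5940 genes. Klf2 (0.505) and Esrrb (0.504) were at percentiles 73.9 and 73.7, and Klf4 (0.348) and Tfcp2l1 (0.334) at 25.2 and 20.1, with a median of 0.416 over all genes. The number of the 10 genes detected per embryo ranged from 6 to 10 (median 9), and from 5 to 9 (median 7) after thinning. Their summed level was 1518 to 3587 CPM in 1C and 8CB embryos and 991 to 2303 CPM in 2CB and 4CB embryos. Tfcp2l1 was the largest part of it, with means of 1199 CPM in 1C and 8CB and 891 CPM in 2CB and 4CB. The sum therefore describes the set poorly, and Sox2 went the other way.

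Correlations between the 7 genes were computed within each pool of 12 embryos on log2 CPM (prior count 2), 42 in all, with two-sided permutation tests of 100000 resamples. None passed an adjusted p of 0.1 by Pearson's r (lowest 0.175), 4 had an unadjusted p below 0.05, and 1 passed by Spearman's rho. That pair was Sox2 and Klf2 in 1C and 8CB, which opposed each other (r = -0.68, permutation p = 0.0161, adjusted p = 0.175, and rho = -0.83, permutation p = 0.00186, adjusted p = 0.0781). Without the 2 embryos farthest from the median of Sox2, r was -0.75, and after thinning -0.51. Sox2 was at 0 UMIs in 5 of these 12 embryos, so values at the floor enter this pair and that of Nanog and Sox2 below. Among them were 8CB embryos 5 and 6, the shallowest of their stage, with the highest Klf2 values (264 and 282 CPM). In 2CB and 4CB the same pair had the other sign (r = 0.32, permutation p = 0.304, rho = 0.29, permutation p = 0.365). Nanog and Sox2, which moved in opposite directions across the pools, had r = 0.76 within 1C and 8CB (permutation p = 0.00546, adjusted p = 0.175) and rho = 0.65 (permutation p = 0.0283, adjusted p = 0.309), with r = 0.64 without the 2 embryos farthest from the median of Nanog. In 2CB and 4CB this pair had r = 0.021 (permutation p = 0.949) and rho = -0.056 (permutation p = 0.868). The other pairs with an unadjusted p below 0.05 by Pearson's r were Nanog and Tfcp2l1 in 1C and 8CB (r = 0.68, permutation p = 0.0152, rho = 0.74, permutation p = 0.00775, r = 0.76 without the 2 farthest embryos) and Klf4 and Klf2 in 2CB and 4CB (r = 0.68, permutation p = 0.0167, rho = 0.52, permutation p = 0.0894), where r was 0.36 without the 2 farthest embryos and the relation rests on them. Adjusted over the 42 values, p was 0.175 for both by r, and 0.163 and 0.492 by rho. In the other pool these pairs had r = 0.22 and r = -0.35. All these values join embryos of 2 stages, and none was computed within a stage of 6.

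The genes most like each member were sought over 24 embryos by Pearson's r of log2 CPM after stage means were subtracted, as a description. Nanog was closest to Ppt2 (0.77), Efnb1 (0.73) and Rangap1 (0.70), and Sox2 to Bcr (0.76), Epcam (0.76) and Mvk (0.76). Esrrb was closest to Ppm1a (0.81), S100pbp (0.78) and Ccdc9 (0.77), and Klf2 to Zfp612 (0.72), Arid2 (0.66) and Lpar1 (0.65). For Klf4 they were Eif3j1 (0.68), Romo1 (0.67) and Mrps15 (0.66), for Sox21 Zfc3h1 (0.70), Rbfox2 (0.69) and Rbm26 (0.66), and for Tfcp2l1 Ap1m1 (0.84), Slc25a5 (0.82) and Abce1 (0.80). No member was among the 3 closest genes of another. After thinning, Nanog with Ppt2 (0.75) and Tfcp2l1 with Abce1 (0.80) were nearly as close, while Klf2 with Lpar1 (0.07), Sox2 with Bcr (0.14) and Mvk (0.22) and Klf4 with Eif3j1 (0.16) were least close, and the remaining pairs lay between. The embryos share libraries and depth, and Eif3j1 itself had an r of -0.74 with log2 total UMIs.

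Of 38 other genes of the pluripotency network and the epiblast, 23 were tested, and 11 were higher in 2CB and 4CB, 7 lower and 5 not called (31.3% and 24% of all genes were called higher and lower), with a median log2 fold change of 0.12, the same as over all genes. Dppa2 and Dppa4, whose proteins form a pair that activates early embryonic genes, had log2 fold changes of -2.96 (standard error 0.26, edgeR adjusted p = 4.49e-10) and -1.46 (0.30, 0.00022), and the mean of Dppa2 was 5432 ± 2595 CPM for 1C and 5866 ± 2348 for 8CB, but 837 ± 243 for 2CB and 660 ± 302 for 4CB (SD over 6 embryos). Nr5a2, an orphan nuclear receptor that regulates Pou5f1, had -1.32 (0.20, 2.94e-06). Sall1, a zinc finger factor, had -1.41 (standard error 0.51), but it reached 30.2 CPM in 5 embryos of 1C and 8CB and 1 of 2CB and 4CB, and its p-value is not given.

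Among those higher, Dnmt3b, a de novo DNA methyltransferase, averaged 395 ± 166 CPM for 2CB and 492 ± 214 for 4CB, but 66.1 ± 46.1 for 1C and 38.9 ± 30.8 for 8CB. It rose by 3.05 on the log2 scale (standard error 0.31, edgeR adjusted p = 5.15e-09). Zfp57, which protects imprints, had a log2 fold change of 2.91 (standard error 0.48). Il6st, the signalling subunit of the LIF receptor, had 9 UMIs over the 1C embryos and 0 over the 8CB embryos, but 251 over 2CB and 80 over 4CB. Spp1, osteopontin, had 1 UMI over all 1C and 8CB embryos and 408 over 2CB and 4CB, a ratio of 181 in CPM (exact 95% interval 32.3 to 7163, counting error only). Zfp57, Il6st and Spp1 could pass the filter only through the 2CB and 4CB side, so no p-value is given for them. Of the 11 genes called higher 4 were admitted in this way, and of the 7 called lower 1 only through 1C and 8CB. The fitted fold changes of Il6st and Spp1 in the plot of these genes depend on the prior count. Within a pool, none of the 23 was called.

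**Figure D4:**
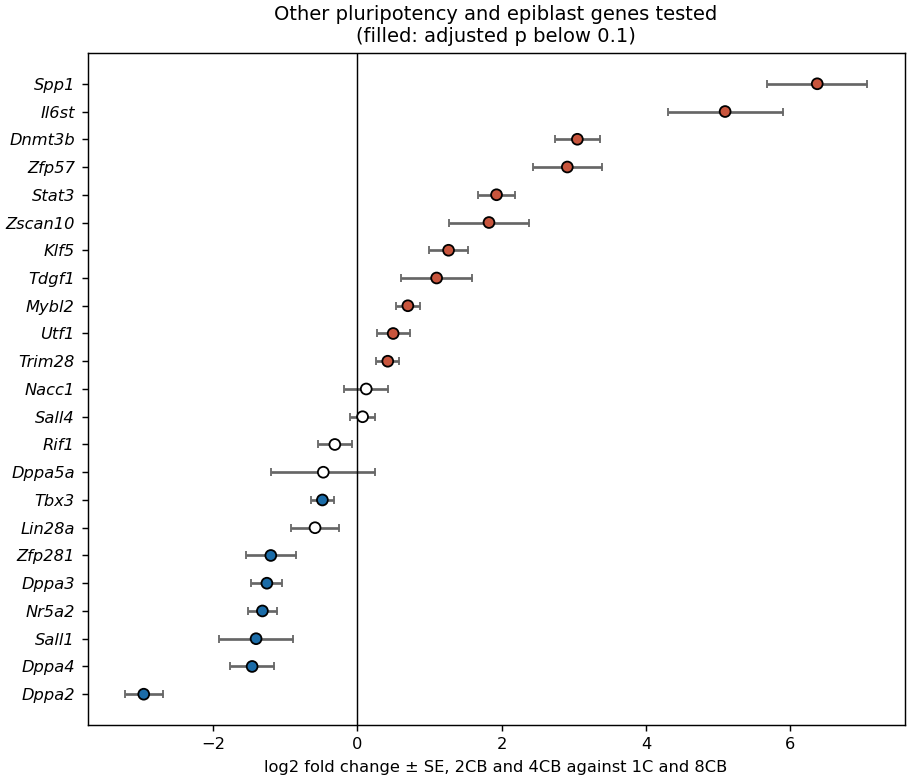
Log2 fold change across the pools (horizontal axis, above 0 for genes higher in 2CB and 4CB) with its standard error for the 23 other pluripotency and epiblast genes tested, with red for genes called higher, blue for genes called lower and open symbols for those not called. Dppa2 at -2.96 is the lowest and Spp1, with 1 UMI on the 1C and 8CB side, the highest.

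Markers of the other lineages were counted in the same comparison, in which 31.3% of all genes were called higher and 24% lower. Of 13 trophectoderm markers, 12 were tested, 9 were higher and 2 lower in 2CB and 4CB, and their summed level was 755 to 1267 CPM in 1C and 8CB embryos and 3336 to 6705 CPM in 2CB and 4CB embryos, with no marker at 0 on either side. Of 10 primitive endoderm markers, 7 were tested, 6 were higher and 1 lower, with sums of 682 to 1222 CPM and 897 to 2826 CPM, and Sox7 and Foxa2 were at 0 in 1C and 8CB. Of the trophectoderm markers called higher 7 of 9, and of those of primitive endoderm 4 of 6, were admitted only through 2CB and 4CB. Of the 2 trophectoderm markers called lower, 1 (Hand1) was admitted only through 1C and 8CB. Of 5 cumulus cell markers, 4 were at 0 UMIs in every embryo. The part of these differences in the levels of the pluripotency genes was not tested.

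**Figure D5:**
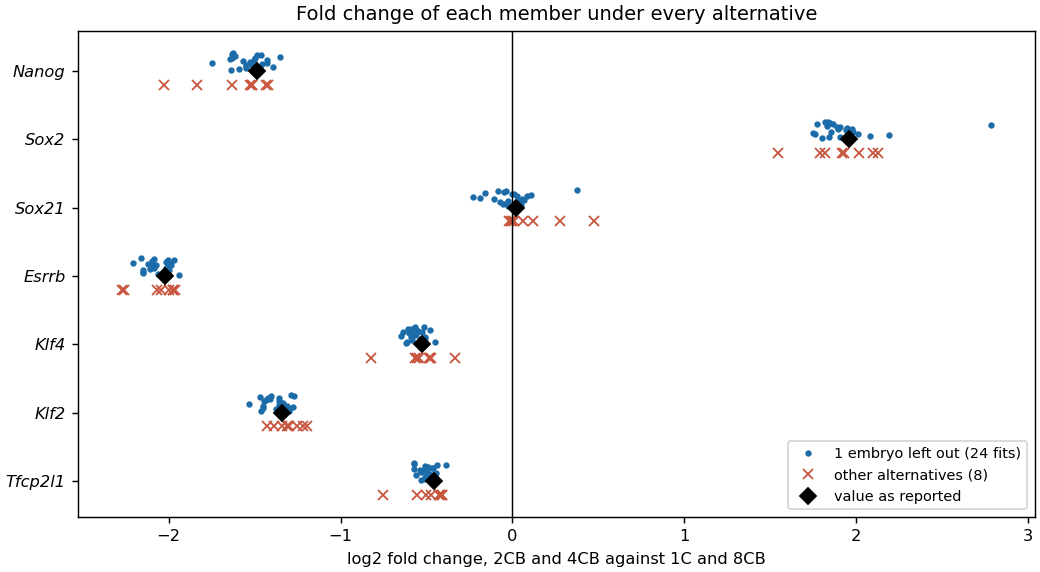
Log2 fold change across the pools (horizontal axis, above 0 where 2CB and 4CB were higher) for each of the 7 genes, as reported (diamonds), with 1 embryo left out at a time (24 dots) and under 8 other alternatives (crosses). Nanog, Esrrb and Klf2 stay below -1 and Sox2 stays above 1, with 2.79 where 8CB embryo 1 was left out, while Sox21 lies on both sides of 0.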

How the data were processed

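The authors made CEL-Seq2 libraries from single embryos, aligned the reads to GRCm38 and deposited UMI counts per gene as whole numbers before normalization. The submitters' processing notes name HISAT2 2.2.6, HTSeq 0.6.1 and DESeq2 1.10.1. The annotation release and strand setting are not given in the sources used here. The GEO records are the 2 pools, and each embryo's stage was read from its column name. Another 24 columns, named Morula, were not used. The same 12 barcodes of 6 bases serve both pools. The UMI length is not given in the sources used here. With the 6 bases usual for CEL-Seq2, 4096 UMIs would be possible, which the largest count, 53029, exceeds, so counts may not be distinct molecules and intervals for counting error may be too narrow. Whole-table totals were 2952530 UMIs for 1C with 8CB and 6658255 for 2CB with 4CB.

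Symbols came from GENCODE M21 and promoters from RefSeq (GRCm38.p6). Counts were scaled by TMM (factors 0.928 to 1.07) and filtered with filterByExpr in edgeR 4.0.16 (R 4.3.3), and 5940 genes were fitted over 24 embryos by quasi-likelihood, with a mean for each stage. The script was tested on simulated data. Standard errors were derived from F. CPM in the text are per total UMIs, without TMM. Permutation tests used NumPy 2.4.6. No gene shared a near-identical end (95% over 100 of the last 500 transcript bases) with a member. Alternatives were DESeq2 1.42.0, its size factors in edgeR, no filter, a minimum of 5 UMIs in 12 embryos, thinned counts (70941 UMIs each), adjusted p below 0.05, a replicate block, log2 total UMIs as covariate, only the 2 stages compared, each embryo left out, and, added after seeing the data, leaving out the 8 embryos under 160000 UMIs. The named genes are all members, the 4 called genes with the largest change each way among 38 other network genes, those called within a pool, Carm1, and the 3 genes most correlated with each member of at least 20 CPM. Members and lists were chosen with earlier results of these data known.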

Additional observations from a re-analysis of the deposited data

Results flagged for a closer look

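In 39 groups of 6 embryos (each of the 10 genes in each stage, leaving out 1 group at 0 throughout), an embryo stood apart from the others in 3 by Dixon's criterion, a gap of more than 0.625 of the whole range. Chance flags about 1 in 20 groups. All 3 were in 8CB. Sox2 in 8CB embryo 1 was at 168 CPM from 60 UMIs, with the next embryo at 27.3 CPM. Sox21 in 8CB embryo 6 was at 423 CPM from 30 UMIs, with the next at 104 CPM, and this embryo had the lowest total of all, 70941 UMIs. Prdm14 in 8CB embryo 4 was at 3.28 CPM, which is 1 UMI where the other 8CB embryos had 0.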

How the results depend on the processing

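Across the pools, the direction and call of Sox2 (1.55 to 2.79), Nanog (-2.02 to -1.35), Esrrb (-2.27 to -1.94) and Klf2 (-1.53 to -1.19) held under all alternatives. Sox2 was admitted to the main fit only through 2CB and 4CB, where it was high, so its call is given as a description. Klf4 lost its call under 7 of 9 and without 2 single embryos, and Tfcp2l1 under thinning. Leaving out 1 embryo gave 5 or 6 of 7 genes called there. Within a pool, 0 of the 7 were called under every alternative. The count over all genes was 5525 with no filter for this comparison, and 5197 among 4 stages. For 8CB against 1C it was 43 with DESeq2, 104 with no filter, 1 with depth as covariate and 0 to 3 without 1 embryo. For 4CB against 2CB it was 10 with DESeq2, 48 with no filter, 1 with thinning, 1 with the replicate block, 4 without the 8 shallow embryos (under 160000 UMIs) and 1 to 6 without 1 embryo. With only the 2 stages fitted, 4CB against 1C gave 1500 genes. In 2CB against 1C, 2 of the 4 called members remained at an adjusted p below 0.05 and 2 were called with only the 2 stages fitted, and 2 to 5 without 1 embryo. In 4CB against 1C, 3 were called without the 8 shallow embryos. The median number of members detected per embryo was 7 after thinning. The causes were not tested.

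Values that were not called changed sign as follows. Sox21 across the pools was -0.018 with at least 5 UMIs in 12 embryos, -0.010 with thinning and -0.23 to 0.38 without 1 embryo. With thinning, 4CB against 2CB was 0.045 for Nanog and -0.091 for Esrrb, and Sox21 was 0.071 in 2CB against 1C and 0.092 in 8CB against 4CB. With depth as covariate, 8CB against 1C was -0.082 for Sox21 and -0.064 for Esrrb, 4CB against 2CB was 0.052 for Nanog, -0.13 for Sox21 and 0.27 for Tfcp2l1, Sox21 was 0.50 in 2CB against 1C, and 8CB against 2CB was -0.58 for Sox21 and -0.22 for Klf4. Without the shallow embryos, 8CB against 1C was -0.83 for Sox21 and -0.19 for Klf2, 4CB against 2CB was 0.19 for Tfcp2l1, and 8CB against 2CB was -0.51 for Sox21. Without 1 embryo, 8CB against 1C ran from -0.17 to 0.26 for Esrrb, -1.33 to 0.96 for Sox2, -0.041 to 0.33 for Tfcp2l1 and -0.63 to 0.43 for Sox21, and 4CB against 2CB from -0.17 to 0.050 for Tfcp2l1 and -0.0095 to 0.44 for Esrrb. Sox21 ran from -0.13 to 0.51 in 4CB against 1C, -0.92 to 0.28 in 8CB against 4CB and -0.46 to 0.60 in 8CB against 2CB, where Klf4 ran from -0.047 to 0.29.

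Embryos with the same number did not pair: over 36 pairs the correlation of their deviations from stage means averaged -0.0156 (-0.248 to 0.224), with 3 over 0.1. With the replicate block edgeR called 3184 genes across the pools, 1 in 4CB against 2CB and 0 in 8CB against 1C, and 6 of the 7 members across the pools. Pou5f1, Prdm14 and Zfp42 had the fewest UMIs of the 10 genes, at most 17 in an embryo, and the part of depth in this was not tested.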
